A study of Danio rerio with 8 samples.

Results

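The 6 genes krt4, krt5, krt8, krt91, krt92 and cyt1 encode keratins of the zebrafish epidermis, and they were measured in whole upf1 mutant larvae and in wild types. They were chosen by symbol as a named list, with earlier results of these data known. All 6 were found among the 31953 genes of the counts table and among the 23680 tested. The mutants are fish of the TLEK strain with a nonsense mutation in both copies of upf1, which encodes the helicase at the centre of nonsense-mediated decay, and the controls are wild-type TLEK fish. RNA with a polyA tail came from the whole body of larvae 5 days after fertilization, with 4 libraries per genotype. The study asked what upf1 does in lymphocyte development. The labels do not name the allele, the number of larvae per library or their clutches, so p-values measure only the spread between these libraries.

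Keratins are the intermediate filament proteins of epithelial cells. A type I and a type II keratin pair to build the filament, which is anchored at desmosomes between cells and at hemidesmosomes on the basement membrane. Larval zebrafish skin has an outer periderm and an inner basal layer. The genes krt4, krt5 and krt8 encode type II keratins, and krt91, krt92 and cyt1 encode type I keratins. The krt4 promoter is widely used to drive transgenes in the superficial skin, and cyt1 was described as a cytokeratin of the enveloping layer, the embryonic precursor of the periderm. Mammalian KRT5 marks basal keratinocytes, and mammalian KRT8 pairs with KRT18 in simple epithelia.

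Library totals lay between 75335048 and 96104507 gene counts, and every one of the 6 keratin genes had at least 10621 counts in every library. Levels are in CPM, counts scaled to library sizes adjusted by TMM factors, edgeR's correction for library composition, with SD over n = 4 libraries per genotype. They are compared between libraries and not between genes, because the counts are not per length. The TMM factors were 1.02 to 1.11 in mutants and 0.893 to 0.977 in wild types. This scaling thus lowered mutant levels relative to wild-type levels, and statements on overlap of the groups hold on this scale. The upf1 mRNA itself averaged 285 ± 7.51 CPM in mutants and 129 ± 4.35 CPM in wild types, a 2.21-fold higher level in mutants (edgeR adjusted p = 8.34e-06). All mutants lay above all wild types. This level separates the groups but does not show which carries the mutation, since a transcript with an early stop codon can still be made.

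Of the 6 keratin genes, 4 fell in mutants (krt5, krt8, krt91 and cyt1) and 2 did not pass (krt4 and krt92), by edgeR's quasi-likelihood test with Benjamini-Hochberg adjustment over all genes at a threshold of 0.05. Over all genes tested, 5.16% were called lower and 14.3% in either direction. The log2 fold changes of all 6 lay below 0, with a median of -0.75, against a median of -0.01 over all genes. With all 6 below 0, none could be called higher, as 9.12% of all genes were by edgeR. The count was 0 by edgeR, 0 at an unadjusted p under 0.05, 0 by DESeq2 and 0 by limma voom. In 5 of the 6 genes all 4 mutants lay below all 4 wild types in TMM-scaled CPM, an arrangement found in 8.71% of genes tested. The DESeq2 Wald test called all 6 lower and limma voom called 5. Over all 23680 genes, DESeq2 called 2105 lower and limma voom 1270, against 1223 by edgeR. Because the RNA came from whole larvae, fewer skin cells and less keratin RNA per cell cannot be told apart.

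**Figure D1:**
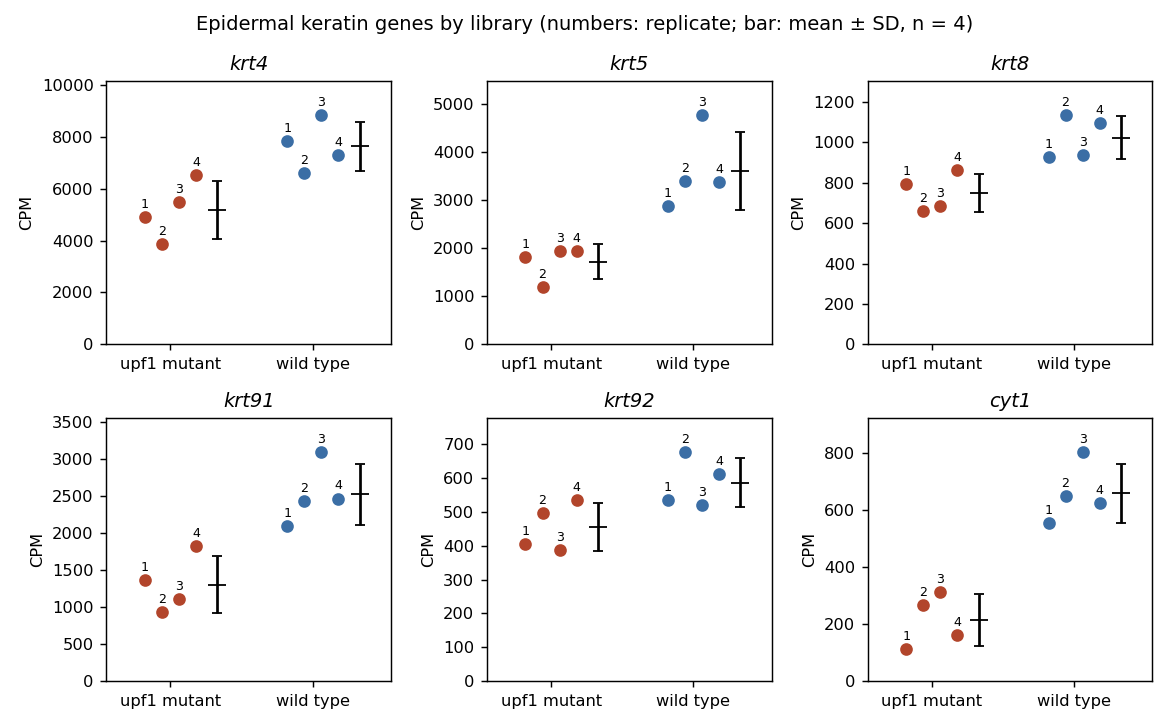
CPM (vertical axes, starting at 0) of the 6 epidermal keratin genes in upf1 mutant (red) and wild-type (blue) libraries, numbered by replicate, with the mean ± SD of each group in black (n = 4). Mutants lay below wild types without overlap, in TMM-scaled CPM, in every panel except that of krt92.

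Among the type II keratins, krt5 fell the most. It had 1817, 1195, 1934 and 1943 CPM in mutant replicates 1 to 4, and 2888, 3405, 4768 and 3385 CPM in wild-type replicates 1 to 4. The groups did not overlap, and the lowest library was mutant replicate 2. The log2 fold change was -1.07 (SE 0.20, edgeR adjusted p = 0.00716), so that the mean level was 1722 ± 356 CPM in mutants and 3611 ± 807 CPM in wild types. The call was kept when any 1 of the 8 libraries was left out, with an adjusted p of at most 0.0216.

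The type II keratin gene krt4 had 4897, 3856, 5496 and 6535 CPM in mutant replicates 1 to 4, and 7823, 6614, 8831 and 7282 CPM in wild-type replicates 1 to 4. Here too all mutants lay below all wild types, but mutant replicate 4 was close to wild-type replicate 2. Scaled to library totals without the TMM factors (1.02 and 0.893 for these libraries), mutant replicate 4 would lie above wild-type replicate 2. Its log2 fold change of -0.56 (SE 0.17) did not pass in edgeR (adjusted p = 0.0568). It passed by DESeq2 (adjusted p = 0.00523) and by limma voom (adjusted p = 0.0490). In edgeR it passed without mutant replicate 4, its highest mutant (adjusted p = 0.0311). It also passed without wild-type replicate 2, its lowest wild type (adjusted p = 0.0429). Of the 8 fits without 1 library only these 2 called it, and the edgeR adjusted p reached 0.147 in the others.

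The third type II gene, krt8, had 795, 659, 685 and 862 CPM in mutant replicates 1 to 4, and 926, 1134, 939.9 and 1097 CPM in wild-type replicates 1 to 4. The groups did not overlap, with mutant replicate 4 and wild-type replicate 1 nearest to each other. The log2 fold change was -0.45 (SE 0.12, edgeR adjusted p = 0.0368). This call was not stable when libraries were left out. It was kept without mutant replicate 4 and lost without any other 1 library. In the 7 fits that lost it the edgeR adjusted p was between 0.0505 and 0.0992. Its log2 fold change stayed between -0.52 and -0.39 over the 8 fits.

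Among the type I keratins, cyt1 had the lowest log2 fold change of the 6 with all libraries in the fit, an order that rested on mutant replicates 1 and 4. It had 113, 268, 312 and 163 CPM in mutant replicates 1 to 4, and 555, 649, 803 and 626 CPM in wild-type replicates 1 to 4. All mutants lay below all wild types, and mutant replicates 1 and 4 lay below mutant replicates 2 and 3. The mean was 214 ± 91.7 CPM in mutants and 658 ± 105 CPM in wild types (log2 fold change -1.62, SE 0.30, edgeR adjusted p = 0.00837). Without mutant replicates 1 and 4, an alternative chosen after seeing the data, the log2 fold change was -1.18 (edgeR adjusted p = 0.00896), against -1.31 for krt91 and -1.20 for krt5. The SD of the mutants was 42.9% of their mean, against 15.9% in wild types.

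The type I gene krt91 had 1361, 933, 1103 and 1822 CPM in mutant replicates 1 to 4, and 2096, 2436, 3099 and 2470.0 CPM in wild-type replicates 1 to 4. The groups were separate, with mutant replicate 2 again the lowest and mutant replicate 4 the highest of the mutants. The log2 fold change was -0.95 (SE 0.21, edgeR adjusted p = 0.0156), and the call was kept when any 1 library was left out (adjusted p 0.00460 to 0.0458).

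The type I gene krt92 had the smallest difference of the 6. It had 404, 496, 388 and 536 CPM in mutant replicates 1 to 4, and 535, 677, 521 and 611 CPM in wild-type replicates 1 to 4. The groups overlapped, since mutant replicate 4 lay above wild-type replicates 1 and 3 by a small margin. The log2 fold change of -0.36 (SE 0.13) did not pass in edgeR (adjusted p = 0.108) and passed by DESeq2 (adjusted p = 0.0405).

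The libraries were not ordered alike for all 6 genes. Mutant replicate 2 was the lowest mutant for krt4, krt5, krt8 and krt91, mutant replicate 1 for cyt1 and mutant replicate 3 for krt92. Mutant replicate 4 was the highest mutant for every gene of the 6 except cyt1. Wild-type replicate 3 was the highest wild type for krt4, krt5, krt91 and cyt1, and wild-type replicate 2 for krt8 and krt92. The profiles of krt5 and krt91 over the 8 libraries differed by a root mean square of 0.19 on the log2 scale after each was centred on its own mean. For krt8 and krt92 this was 0.16, while cyt1 differed from each of the other 5 by at least 0.61.

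**Figure D2:**
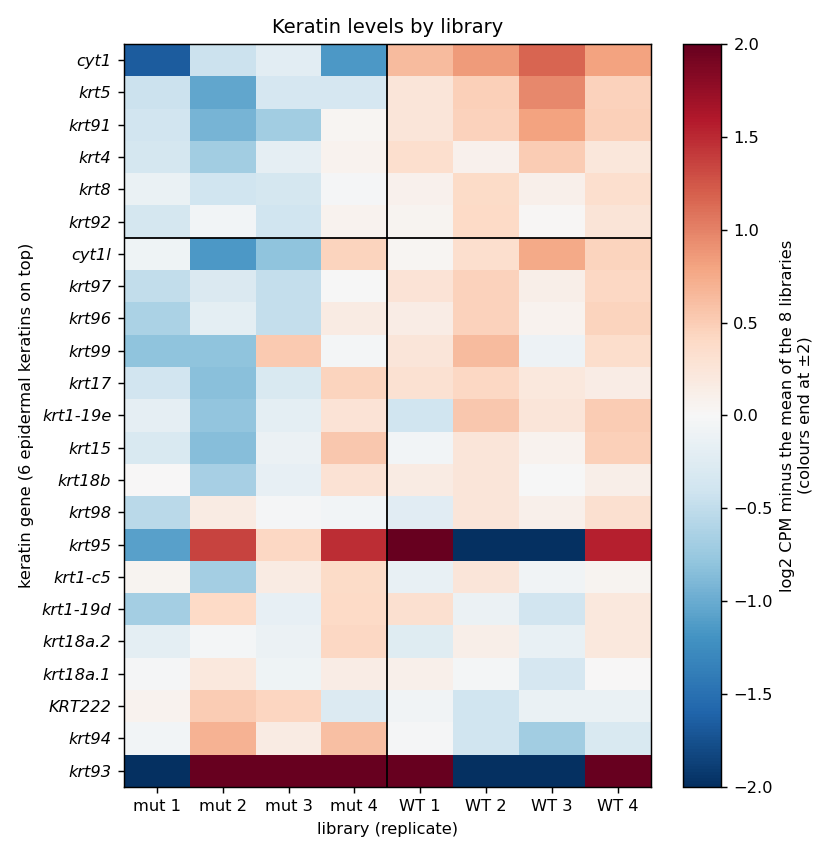
Log2 CPM of 23 keratin genes (rows, the 6 epidermal keratins on top) in the 8 libraries (columns, mutants on the left), each centred on its mean over the libraries, with colours ending at 2 in each direction. The cyt1 row is darkest blue (lowest) in mutant replicates 1 and 4, where cyt1l is not low, and krt93 and krt95 are low in mutant replicate 1 and wild-type replicates 2 and 3.

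Together the 6 genes took 0.989%, 0.819%, 1.04% and 1.21% of all gene counts in mutant replicates 1 to 4, and 1.42%, 1.33%, 1.85% and 1.48% in wild-type replicates 1 to 4. Every mutant share lay below every wild-type share. The mean was 1.01% ± 0.160 in mutants and 1.52% ± 0.229 in wild types (SD, n = 4 each), a difference of -0.51 percentage points, which was given no test because the genes were picked as a list.

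In the current RefSeq gene table (assembly GRCz12tu, used only for gene order), krt92, cyt1 and krt91 lie in 1 cluster of type I keratin genes with krt1-19d, krt1-19e, cyt1l and krt17. There cyt1l is the gene next to cyt1, and krt5 is next to krt8, which is followed by krt18a.1 and krt18a.2. In that table krt92 overlaps an uncharacterised locus and krt4 overlaps si:dkey-195m11.11. The library kit keeps strand, per the labels' protocols, but no source used here states the strand setting of the counting. Reads of overlapping genes therefore cannot be told apart, and neighbouring keratins of similar sequence may share reads.

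The neighbour cyt1l showed the other order among the mutants. It had 445, 213, 270.0 and 642 CPM in mutant replicates 1 to 4, and 487, 596, 802 and 641 CPM in wild-type replicates 1 to 4. Mutant replicates 1 and 4, the lowest for cyt1, were the highest mutants for cyt1l. As a share of the counts of both genes, cyt1 took 20.3%, 55.8%, 53.6% and 20.2% in mutant replicates 1 to 4, against 49.4% to 53.3% in the 4 wild types. On its own cyt1l did not pass (log2 fold change -0.69, SE 0.33, edgeR adjusted p = 0.208). It passed without mutant replicates 1 and 4 (log2 fold change -1.39, edgeR adjusted p = 0.0109), an alternative chosen after seeing the data. These were its highest mutants, so leaving them out was bound to lower its mutant mean. That pass therefore does not show whether cyt1l fell.

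The sum of cyt1 and cyt1l was 559, 481, 582 and 805 CPM in mutant replicates 1 to 4, against 1041, 1245, 1605 and 1267 CPM in wild-type replicates 1 to 4. The summed levels did not overlap. With the counts of both genes added before the fit, an alternative chosen after seeing the data, the log2 fold change was -1.09 (SE 0.18, edgeR adjusted p = 0.00409). This value was close to the -1.07 of krt5, and whether reads of these neighbours were exchanged in the counting was not tested.

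**Figure D3:**
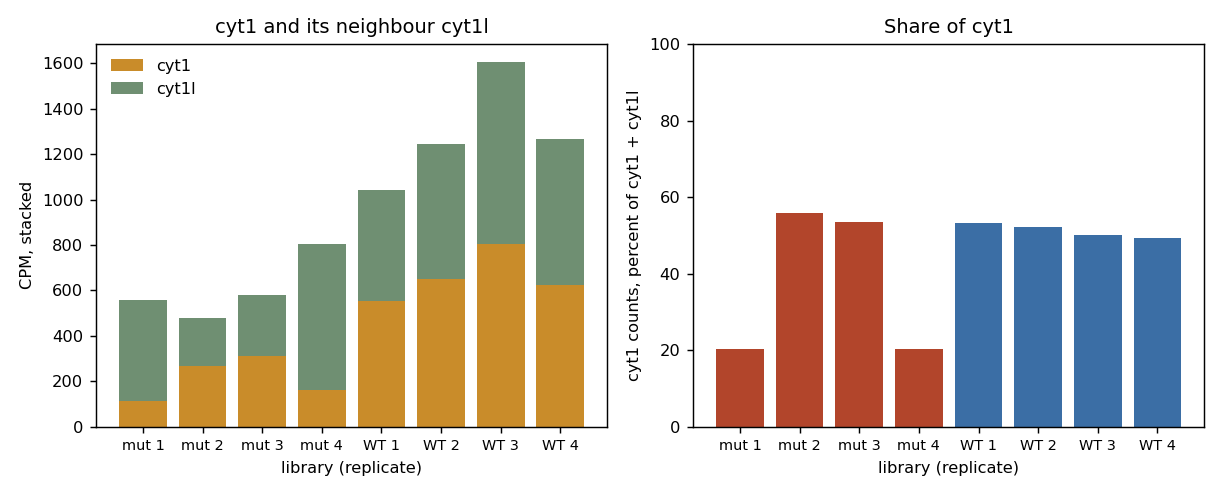
Left, CPM of cyt1 and its neighbour cyt1l stacked for each of the 8 libraries, mutants on the left. Right, the percent of the counts of both genes that were assigned to cyt1, which was 20.3% and 20.2% in mutant replicates 1 and 4 and between 49.4% and 55.8% in the other 6 libraries.

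The authors' deposited splicing tables hold 6 junction-count events in these genes: 2 retained introns in cyt1, 1 in krt92, 1 cassette exon in krt4 and 2 in krt8. The tables name their sets of 4 libraries only as the first and the second. In the authors' deposited table, inclusion reads of the krt4 exon were 46483, 31476, 52958 and 63135 in the first set. In the second they were 67604, 55113, 72282 and 58254. These orders are those of the krt4 CPM in mutant replicates 1 to 4 and in wild-type replicates 1 to 4. By these levels the first set would be the mutants, but no label states this. The sets therefore keep the names first and second here. Over all events in the authors' deposited tables, 8.84% had an FDR under 0.05, and 14.3% of retained introns did. Of the 6 events, 1 passed an FDR of 0.05, an intron of 98 bases in cyt1 (chr19:5447798-5447895, minus strand, GRCz10) with FDR = 0.00339 in the authors' deposited table. Its difference between the sets in the authors' deposited table was -0.003 in mean inclusion level, the share of transcripts that keep the intron as estimated from junction reads after correction for length.

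The reads spliced across this 98-base cyt1 intron were uneven within each set rather than between them. In the authors' deposited table they numbered 0, 161, 176 and 0 in the first set and 17, 318, 18 and 300 in the second. The inclusion levels were 1.0, 0.915, 0.928 and 1.0 in the first set and 0.995, 0.933, 0.996 and 0.932 in the second, per the authors' deposited table. Each set thus held 2 libraries with few or no spliced reads and 2 with many. If the first set holds the mutants in replicate order, the libraries with 0 spliced reads are mutant replicates 1 and 4. The other cyt1 intron, of 101 bases (chr19:5446805-5446905), had inclusion levels between 0.002 and 0.012 in the authors' deposited table and did not pass (FDR = 1.0).

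The other events showed near-constant splicing. The krt92 intron of 86 bases (chr19:5434443-5434528, minus strand) was kept at levels from 0.030 to 0.038 over the 8 libraries in the authors' deposited table (FDR = 1.0). The krt4 exon of 65 bases (chr6:39312092-39312156) was skipped in 2 junction reads of the first set and 0 of the second, beside at least 31476 inclusion reads per library, in the authors' deposited table. The krt8 exons of 44 and 209 bases (chr23:10315531-10315574 and chr23:10317485-10317693) each had 1 skipping read in total over the 8 libraries, per the authors' deposited table.

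The remaining keratin genes did not move as a block. Of 17 other keratin genes, all tested, 1 fell, 1 rose and 15 did not pass, with 10 log2 fold changes below 0 and a median of -0.21. Over all genes 5.16% were called lower and 9.12% higher. The gene that fell was krt97 (log2 fold change -0.63, SE 0.13, edgeR adjusted p = 0.0112). Its mutant replicates 1 to 4 had 136, 157, 138 and 191 CPM, and its wild-type replicates 1 to 4 had 231, 264, 209 and 256 CPM. The groups did not overlap.

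The gene that rose was krt94. Its mutant replicates 1 to 4 had 52.9, 88.6, 61.5 and 82.7 CPM, and its wild-type replicates 1 to 4 had 54.2, 41.8, 33.9 and 44.4 CPM (log2 fold change 0.71, SE 0.19, edgeR adjusted p = 0.0354). Mutant replicate 1 lay just below wild-type replicate 1. The adjusted p was between 0.0723 and 0.0880 when mutant replicate 2 or 4, or wild-type replicate 2, 3 or 4, was left out. The type I keratin gene krt18a.1, related to the mammalian partner of KRT8, was at 248 ± 24.2 CPM in mutants and 227 ± 28.0 CPM in wild types and did not pass (log2 fold change 0.13, SE 0.11, edgeR adjusted p = 0.501).

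Further unpassed values were those of krt17, krt96 and KRT222. The log2 fold change of krt17, which lies between cyt1 and krt91, was -0.47 (SE 0.23, edgeR adjusted p = 0.218). Its mutants ranged from 369 to 894 CPM and its wild types from 727 to 883 CPM, so mutant replicate 4 exceeded every wild type. For krt96 the log2 fold change was -0.54 (adjusted p = 0.0670) and for KRT222 0.40 (adjusted p = 0.140). Each of krt17, krt96 and cyt1l was called lower in 1 of 8 fits without 1 library. That fit left out mutant replicate 4, their highest mutant (edgeR adjusted p = 0.0151, 0.0166 and 0.0461). The same fit called KRT222 higher (adjusted p = 0.0287). The gene krt1-19e, widely used as a basal epidermis marker under its older name krtt1c19e, was at 883 ± 253 CPM in mutants and 1199 ± 316 CPM in wild types (log2 fold change -0.44, SE 0.25, edgeR adjusted p = 0.278).

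**Figure D4:**
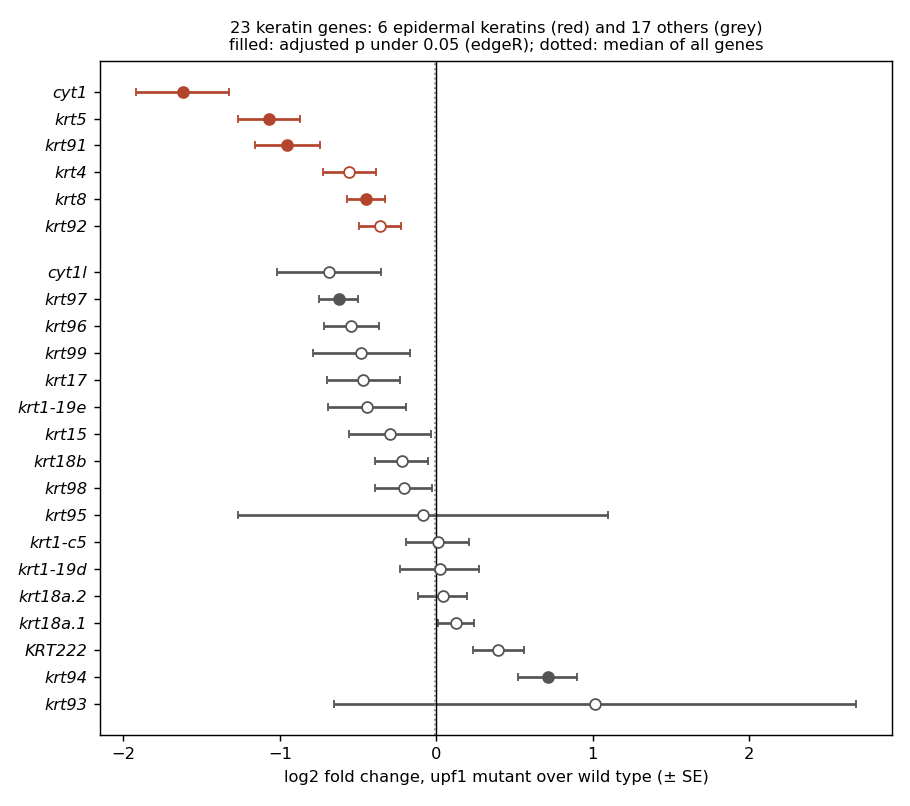
Log2 fold change, upf1 mutant over wild type, with SE for the 6 epidermal keratin genes (red) and the 17 other keratin genes (grey), filled where the edgeR adjusted p was under 0.05. All 6 red points lie left of 0, and the grey points lie on both sides, with krt97 and krt94 the filled ones.

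Keratin filaments attach to desmosomes, and 3 of 15 tested desmosome and plakin genes fell in mutants while 12 did not pass. Over all genes, edgeR called 5.16% lower. Of the 15 log2 fold changes 13 lay below 0, with a median of -0.48. The gene jupa, for the adaptor plakoglobin, was at 180 ± 11.6 CPM in mutants and 272 ± 28.9 CPM in wild types (log2 fold change -0.60, edgeR adjusted p = 0.00324), a call kept without any 1 library. The plakophilin gene pkp3a (-0.89, adjusted p = 0.0399) and PERP, a desmosome membrane protein gene (-0.60, adjusted p = 0.0434), fell too. Neither call was stable when 1 library was left out. The pkp3a gene passed only without mutant replicate 3 or wild-type replicate 2 (adjusted p 0.0532 to 0.102 without any other). PERP passed only without mutant replicate 3 (0.0543 to 0.114 without any other). DESeq2 called 10 of the 15 lower, and 2105 of all 23680 genes tested.

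Of 15 hemidesmosome and basement membrane genes, 2 rose and 13 did not pass, with a median log2 fold change of -0.26. Among all genes, 9.12% were called higher and 5.16% lower. The integrin gene itga6a, whose protein forms the hemidesmosome receptor with integrin beta 4, was at 23.1 ± 2.07 CPM in mutants and 15.6 ± 1.98 CPM in wild types (0.57, edgeR adjusted p = 0.00893). The extracellular matrix gene hmcn1 was at 60.9 ± 12.8 CPM in mutants and 38.2 ± 3.38 CPM in wild types (0.67, adjusted p = 0.0165, and 0.0518 without wild-type replicate 4). The hemidesmosome collagen gene col17a1a was at 287 ± 120 CPM in mutants and 486 ± 61.4 CPM in wild types and did not pass (-0.76, adjusted p = 0.137), nor did its paralog col17a1b (-0.51, adjusted p = 0.150).

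Markers of the periderm and regulators of the epidermis were lower in sum, with few single calls, beside 5.16% of all genes called lower. Of 11 periderm markers 2 fell and 9 did not pass (median log2 fold change -0.46), and their summed level ranged from 692 to 997 CPM in mutants and from 1008 to 1214 CPM in wild types. This list shares ppl and evpla with the desmosome and plakin list. The 2 were the calpain gene CAPN9 (-0.59, edgeR adjusted p = 0.0283) and icn2, for an S100-type calcium-binding protein (-0.85, adjusted p = 0.0478). CAPN9 passed only without mutant replicate 3, wild-type replicate 2 or wild-type replicate 3 (adjusted p 0.0610 to 0.0749 without any other), and icn2 only without mutant replicate 4 (0.0564 to 0.120 without any other). Periplakin gene ppl (-0.46, adjusted p = 0.0686) and annexin gene anxa1c (-1.25, adjusted p = 0.0730) did not pass.

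Of 13 epidermis regulators and epithelial markers, epcam, a cell adhesion gene of epithelia, fell (log2 fold change -0.50, edgeR adjusted p = 0.0354) and 12 did not pass, with a median of -0.21. It passed only without mutant replicate 4 or wild-type replicate 2, with an adjusted p of up to 0.0981 in the other 6 fits. This 1 call of 13 stands beside 5.16% of all genes called lower. The matriptase gene st14a (-0.31, adjusted p = 0.108) and its inhibitor gene spint1a (-0.38, adjusted p = 0.109) did not pass. The basal layer transcription factor gene tp63 was at 38.9 ± 10.8 CPM in mutants and 58.7 ± 17.8 CPM in wild types and did not pass (adjusted p = 0.155). The summed level of this list ranged from 620.4 to 764 CPM in mutants and from 789.8 to 1015 CPM in wild types. The part of the number of skin cells in the keratin differences was not tested.

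Ionocytes and mucous cells share the larval skin. Of 17 ionocyte markers, the ammonia transporter gene rhcga (log2 fold change -0.90, edgeR adjusted p = 0.00453) and the calcium channel gene trpv6 (-0.92, adjusted p = 0.00523) fell, both also without any 1 library, and 15 did not pass. The median of the ionocyte list was -0.05. Its summed level ranged from 1993 to 2226 CPM in mutants and from 2237 to 2631 CPM in wild types. Among all genes, 5.16% were called lower and 14.3% in either direction. None of 4 mucous cell markers and 3 fin fold markers passed: the count was 0 by edgeR, by DESeq2 and by limma voom, and 0 before p-values were adjusted, at the same threshold. The median log2 fold change was -0.53 for the fin fold markers and 0.25 for the mucous cell markers. The summed fin fold markers were at 130 CPM in mutant replicate 2, against 779 to 879 CPM in the other 3 mutants and 852 to 1208 CPM in wild types.

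Intermediate filament genes outside the keratins had a median log2 fold change of 0.01, while 5.16% of all genes were called lower and 9.12% higher. Of 16 tested, nes, for the filament protein nestin of neural progenitors, rose (1.46, edgeR adjusted p = 0.00190), and 3 neurofilament genes fell. These were nefmb (-0.38, adjusted p = 0.0135), nefma (-0.33, adjusted p = 0.0219) and nefla (-0.46, adjusted p = 0.0266). For nefma and nefla the adjusted p was between 0.0599 and 0.0771 when mutant replicate 1 or 3, or wild-type replicate 3 or 4, was left out.

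Of 9 markers of tissues other than skin, 3 fell and 6 did not pass, beside 5.16% of all genes called lower. Their median log2 fold change was -0.33. The 3 that fell were the muscle actin gene actc1b (-0.69, edgeR adjusted p = 0.0265), the myelin gene mbpa (-0.50, adjusted p = 0.0223) and the liver gene fabp10a (-0.79, adjusted p = 0.0426). The summed level of the 9 was 15447 to 22051 CPM in mutants and 26943 to 36243 CPM in wild types. Most of this sum was actc1b, and the other 8 markers summed to 5424 to 7227 CPM in mutants and 7446 to 8709 CPM in wild types. The actc1b call was lost without mutant replicate 1, 2 or 3 or wild-type replicate 4 (adjusted p up to 0.0546). The mbpa call was lost without mutant replicate 1, 3 or 4 or wild-type replicate 3 or 4 (up to 0.0645), and that of fabp10a without mutant replicate 1, 3 or 4 or wild-type replicate 2 or 4 (up to 0.0964). The part of these tissues in the keratin result was not tested.

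**Figure D5:**
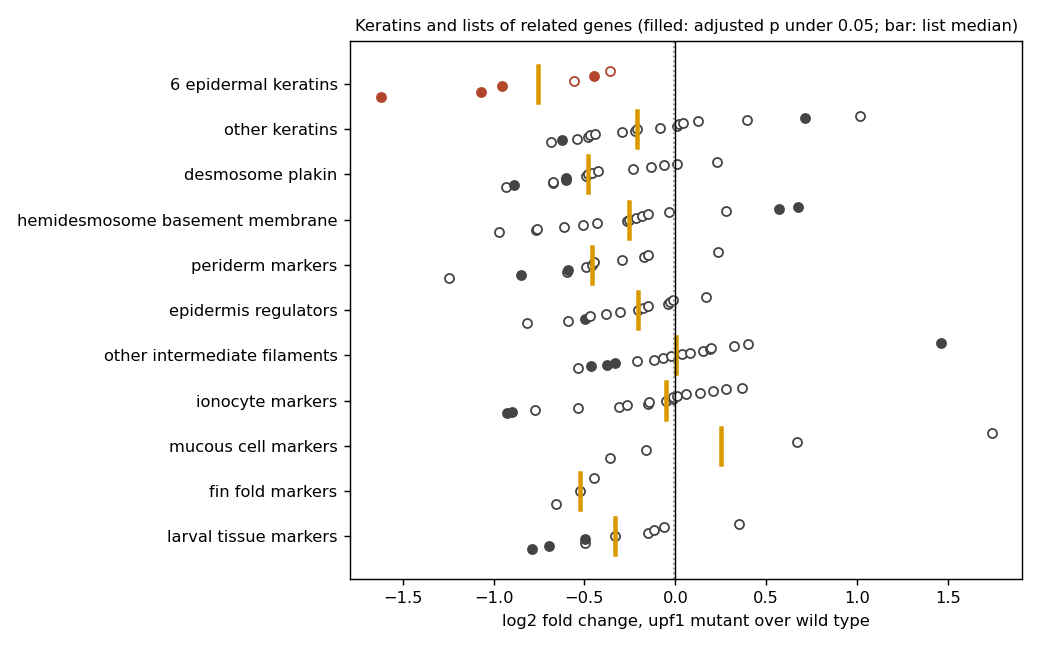
Log2 fold change, upf1 mutant over wild type, of each gene in 11 lists (rows), filled where the edgeR adjusted p was under 0.05, with the list median as a vertical bar and the median of all genes as a dotted line. The 6 epidermal keratins have a median of -0.75, fin fold markers -0.53, desmosome genes -0.48 and periderm markers -0.46. Markers of tissues other than skin have -0.33 and the other keratins -0.21. The desmosome and periderm lists share ppl and evpla.

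The genes most like the keratins were sought among genes outside the 6 whose mean log2 CPM reached 5, by the root mean square difference of centred log2 CPM profiles over the 8 libraries. The profiles keep the difference between the genotypes, so genes with a like fold change come out near. The mean profile of the 6 keratins was nearest to fbp1a (0.08), zgc:77439 (0.10), aldoab (0.11), myoz1b (0.12) and scp2a (0.13). The log2 fold changes of these genes were -0.79, -0.98, -0.77, -0.76 and -0.86. Of these, aldoab encodes an aldolase and myoz1b a muscle sarcomere protein. Nearest to krt8 were the cytoplasmic actin gene actb2 (0.06), the actin capping gene capzb (0.08) and rtn3 (0.08). Nearest to krt4 were cfl1l (0.12), mhc1zba (0.12) and sardh (0.13), and nearest to krt92 were eef1a1a, rplp2 and rps29 (0.08, 0.08 and 0.09).

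For krt5 and krt91 the nearest 3 genes outside the 6 were the same: zgc:77439, aldh9a1a.1 and si:dkey-183i3.5, at 0.18 to 0.21 from krt5 and 0.20 from krt91. Only zgc:77439 was nearer to krt5 than krt91 was, and none of the 3 was nearer to krt91 than krt5 was. The nearest genes to cyt1 were farther away, c3a.2 at 0.36, slc38a4 at 0.40 and uox at 0.43. None of the 5280 genes compared lay as near to cyt1 as the nearest genes lay to the other 5 keratins. This distance is not scaled for the size of the changes, and cyt1 had the lowest log2 fold change of the 6 (-1.62).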

How the data were processed

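The authors deposited a table of raw gene counts. Per the submitters' processing notes the build was GRCz10 and the tools included featureCounts, STAR 2.5.2b and TopHat2 2.0.13; no source used here states which aligner, annotation release or strand setting lay behind the counts. The splicing tables give the authors' deposited p-values and FDR, junction counts and inclusion levels. The transcript table was not used.

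Symbols came from the splicing tables for 12446 genes and a gene name table for 14122 (for keratins, the name table first), with 5385 unnamed. Of 122 list entries, 109 matched, 5 were ambiguous and 8 had no match. The test was run in edgeR 4.0.16 under R 4.3.3 (TMM, filterByExpr with minimum count 10 and total 15, glmQLFit with the robust option, Benjamini-Hochberg, threshold 0.05). The robust option was not in the planned design: it was taken up after a fit without it had been seen, to follow earlier processing of these data, and the same number of keratins was called without it. Python 3.11.15 with pandas 2.3.3, numpy 2.4.6 and matplotlib 3.10.9 did the rest. On simulated counts for mutants against wild types over 23458 genes, 35.1% of planted 1.5-fold changes were found, as were 73.6% of 2-fold and 90.1% of 4-fold ones, and 3 of 140 calls were false. Only 200 genes were changed there, a smaller share than the 14.3% called in the real data. These rates may therefore differ from those of the real test.

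The named genes are the 6 keratins, up to 6 other keratins and up to 4 genes per list by adjusted p, with 3 to 5 nearest profiles each; krt18a.1, krt1-19e and tp63 were named after their values were seen. The keratins and lists were chosen with earlier results of these data known. Within a genotype, no 2 libraries differed by as little as sampling noise. Chi-square per degree of freedom was 128, 145 and 151 in pairs with mutant replicate 2, against 49.8 to 106 in other mutant pairs. It was 97.5, 111 and 108 in pairs with wild-type replicate 2, against 40.4 to 54.1 in other wild-type pairs. Alternatives were other scalings, filters and tools (DESeq2 1.42.0, limma 3.58.1), a replicate block and leaving out libraries.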

Additional observations from a re-analysis of the deposited data

Results flagged for a closer look

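The krt5 level of mutant replicate 2, 1195 CPM, lay far from the other 3 mutants, which had 1817, 1934 and 1943 CPM; the gap took 0.83 of the range of the 4 libraries, above Dixon's critical value for 4 samples. Without that library krt5 remained called (edgeR adjusted p = 0.0105). This was 1 of 78 groups of 4 libraries examined over 39 genes, and chance marks about 1 in 20.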

How the results depend on the processing

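All 6 keratins kept a log2 fold change below 0 in each of 18 alternatives, and krt5, krt91 and cyt1 kept their calls in all 18. The number called lower was 3 to 5 when single libraries were left out, against 4 with all libraries, and 3 without mutant replicates 1 and 4. Left out singly, libraries moved the summed share from -0.57 to -0.40 percentage points. Over all genes, single libraries moved the count lower to between 675 and 1279 and the count higher to between 1435 and 2267. Without mutant replicates 1 and 4 together these were 387 and 958, and DESeq2 called 2105 genes lower. Of the other keratins, 1 to 4 were lower and 0 to 1 higher without single libraries, 3 were lower without mutant replicates 1 and 4, and 2 were lower by DESeq2. DESeq2 also called 5 periderm markers, 2 epidermis regulators and 4 ionocyte markers lower. The replicate numbers showed no pairing of the libraries (correlations of same-numbered deviations -0.07 to 0.03, and 1 of 8 libraries correlated best with its own number). With so few libraries this check cannot exclude shared clutches, which the labels do not name. With a replicate block 666 genes were lower and 1379 higher, 3 of the 6 keratins were called (krt8 adjusted p = 0.0858), and of the other keratins 2 were lower and 0 higher. The cyt1 event was called at an FDR of 0.01 and with 20 junction counts per library.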

Other observations

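The keratin genes krt93 and krt95 were low in the same 3 libraries, which come from both genotypes. The krt93 level was 0.0427, 9.08, 7.15 and 12.5 CPM in mutant replicates 1 to 4 and 8.49, 0, 0.0349 and 5.70 CPM in wild-type replicates 1 to 4. The krt95 level was 0.0748, 0.504, 0.253 and 0.552 CPM in mutant replicates 1 to 4 and 0.868, 0, 0.0116 and 0.588 CPM in wild-type replicates 1 to 4. Both were low in mutant replicate 1 and wild-type replicates 2 and 3.

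Of 15 events in the other keratin genes, 4 had an FDR under 0.05 in the authors' deposited tables, against 8.84% of all events. They compare a first and a second set of libraries, whose genotypes the tables do not name. The krt4 reads given above order the first set like the mutants and the second like the wild types. In the authors' deposited table the 157-base exon of krt18b (chr6:39365296-39365452, GRCz10) was skipped in 40, 12, 30 and 35 junction reads of the first set and in 0 reads of each library of the second. Likewise the 83-base exon of KRT222 (chr22:11699610-11699692) was skipped in 8, 14, 24 and 12 reads of the first set and 0 in each of the second, with FDR = 2.16e-13 in the authors' deposited table. A 221-base exon of KRT222 (chr22:11691330-11691550) was skipped in 37 reads of the first set and 7 of the second (FDR = 1.15e-04 in the authors' deposited table). The called 157-base exon of krt98 (chr11:11523315-11523471) went the other way, with 3 skipping reads in the first set and 9 in the second (FDR = 0.0460 in the authors' deposited table). For the 83-base exon of krt1-19d (chr19:5414532-5414614) the authors' deposited table has 8, 13, 19 and 15 skipping reads in the first set and 0 in each of the second, beside an FDR of 1.0, so this exon was not called.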
